A study of Mus musculus with 4 samples.

Results

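The 38 genes described here are cell cycle genes of the mouse, chosen by name from the 33954 genes in the deposited count matrices and kept as 2 lists by phase. The replication list holds 20 genes whose products license, copy or repair DNA, and the mitotic list holds 18 genes whose products condense, move and part the chromosomes. Every member was present in the matrices. The counts come from nuclei of whole mouse heart in 4 libraries, 1 for each combination of genotype and state: uninjured hearts (homeostasis) of wild type (WT) and of Q150X animals, and hearts of both genotypes taken 3 days after myocardial infarction (3dpMI). Q150X is an allele of Vegfa that ends the protein early, made in the mouse germline with CRISPR/Cas9 to model a variant found in people, and the question was how it acts on the uninjured and the infarcted heart. The sample titles mark these libraries "ho", while the series text does not say in words whether both copies carried the allele. The allele is carried by every cell of the animal and not driven in one cell type. The number of hearts behind a library, and their age, sex and strain, are not given in the sources used here.

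Cells that leave rest first make the D cyclins, which with their kinases inactivate the retinoblastoma family and free the E2F factors. E2F factors switch on the genes for replication, and later the MuvB complexes with B-Myb and FoxM1 switch on the genes for mitosis, many of them through a CHR element, often beside CCAAT boxes. In the adult heart most cells rest. After infarction fibroblasts, macrophages and vascular cells divide in the injured wall, while adult cardiomyocytes are known for rarely dividing, although their nuclei can replicate DNA without cell division.

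The promoters of a few members are shown first, because the lists differ in the letters they hold. The 150 bases before the transcription start of 3 replication genes (Mcm6, Pola1 and Rrm1) and of 3 mitotic genes (Mki67, Top2a and Kif11) follow, 5′ to 3′ on the strand of the gene, from RefSeq on GRCm38.p6. Capitals mark the E2F core (TTCGCGC or TTGGCGC, and also TTCCCGC and TTGCCGC), the CHR element (TTTGAA or TTCGAA) and the CCAAT box (CCAAT), each on either strand.
Mcm6: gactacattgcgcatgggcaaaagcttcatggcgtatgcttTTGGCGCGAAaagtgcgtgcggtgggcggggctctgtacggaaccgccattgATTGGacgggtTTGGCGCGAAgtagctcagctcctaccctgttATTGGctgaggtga
Pola1: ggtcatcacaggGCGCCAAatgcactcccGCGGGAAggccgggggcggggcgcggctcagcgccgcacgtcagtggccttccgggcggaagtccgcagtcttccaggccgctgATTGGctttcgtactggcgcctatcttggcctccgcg
Rrm1: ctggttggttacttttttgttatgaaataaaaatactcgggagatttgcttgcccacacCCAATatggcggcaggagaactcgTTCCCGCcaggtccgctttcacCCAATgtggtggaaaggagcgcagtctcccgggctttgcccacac
Mki67: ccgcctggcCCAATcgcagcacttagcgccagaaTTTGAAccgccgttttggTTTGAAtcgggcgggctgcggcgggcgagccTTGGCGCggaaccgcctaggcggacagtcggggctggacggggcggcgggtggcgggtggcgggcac
Top2a: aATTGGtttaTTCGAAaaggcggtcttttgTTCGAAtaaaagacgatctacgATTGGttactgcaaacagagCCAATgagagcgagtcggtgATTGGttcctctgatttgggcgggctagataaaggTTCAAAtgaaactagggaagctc
Kif11: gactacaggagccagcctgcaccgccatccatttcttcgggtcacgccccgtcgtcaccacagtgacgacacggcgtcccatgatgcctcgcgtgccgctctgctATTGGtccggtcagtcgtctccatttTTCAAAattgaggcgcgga
These stretches lie at Mcm6 chr1:128359706-128359855 on the minus strand, Pola1 chrX:93632156-93632305 on the minus strand, Rrm1 chr7:102441545-102441694 on the plus strand, Mki67 chr7:135716380-135716529 on the minus strand, Top2a chr11:99024190-99024339 on the minus strand and Kif11 chr19:37376232-37376381 on the plus strand. Both E2F cores of Mcm6 are read on both strands, since TTGGCGC and the reverse of TTCGCGC overlap there, and a CCAAT box on the reverse strand can share letters with TTGGCGC. In windows from 250 bases before to 50 after the start, found for 17 of the 20 replication genes and 16 of the 18 mitotic genes, the E2F core was in 13 replication (76.5%) and 3 mitotic genes (18.8%), against 9.69% of the 27025 genes with a window. The CHR element was in 13 mitotic genes (81.3%) and 3 replication genes (17.6%), against 19.4% of all. The CCAAT box was in 13 genes of each list (76.5% of the replication and 81.3% of the mitotic windows), against 37.9% of all. A match of letters describes the window and does not show that a factor binds there.

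The libraries differed in depth. They kept 4167 nuclei of the uninjured WT, 6092 of the uninjured Q150X, 8415 of the infarcted WT and 7364 of the infarcted Q150X heart, an order kept throughout, with medians of 921, 965, 2022 and 2671 UMIs (unique molecular identifiers, the counted molecules). The libraries of uninjured hearts held 0.862% and 0.795% mitochondrial UMIs in the median nucleus, and those after infarction 0.165% and 0.126%. Between 39 and 117 cell barcodes were shared by a pair of libraries, at most 1.44% of the smaller one. Nuclei were sorted into classes by clustering without the cell cycle genes, and a class name stands for nuclei that resemble that cell type: fibroblasts (1501, 2980, 1818 and 1822 nuclei), vascular endothelium (548, 721, 2568 and 1440), macrophages or monocytes (71, 348, 1541 and 2702), pericytes (241, 764, 696 and 369) and cardiomyocytes (1564, 833, 1169 and 421). Markers of each class were highest in it, for example endothelial markers at 21303 to 24925 CPM in the endothelium and 203 to 456 in cardiomyocytes. Other pairs were less far apart. Pericytes held 11753, 14894, 12280 and 11068 CPM of their own markers, and 5198, 6707, 6541 and 7634 CPM of fibroblast markers. Endothelial markers in pericytes stood at 7049, 2910, 3736 and 2236 CPM. Pericyte markers in cardiomyocytes stood between 4894 and 6555 CPM. CPM scales the UMIs of a gene to the same total of UMIs for every class and library. Vegfa itself stood at 716, 924, 592 and 692 CPM in cardiomyocytes, a level that cannot check the genotype, since transcripts with the edited codon are counted too. With 1 library in each group no difference between groups could be tested. The intervals in brackets (95%) cover counting error only, not the variation between hearts. Those of sums and ratios treat each UMI as a separate draw. They leave out the spread between nuclei and are too narrow where UMIs of a list lie together in few nuclei. In tissue, more dividing cells of a class and more RNA of these genes per dividing cell both raise a CPM, and shares of nuclei are therefore given beside the sums.

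Both lists stood at their lowest in cardiomyocytes and were higher after infarction in most classes. In fibroblasts the summed level of the mitotic genes was 155, 59.7, 1368 and 1526 CPM, and that of the replication genes 139, 161, 574 and 613 CPM. In endothelium the mitotic sum was 58.5, 245, 671 and 1358 CPM and the replication sum 248.6, 268, 525 and 782 CPM. Endothelium was thus the class with the widest gap between the genotypes after infarction. In pericytes the mitotic sum was 62.9, 80.1, 564 and 1060.0 CPM and the replication sum 108, 143, 382 and 524 CPM. Macrophages or monocytes had mitotic sums of 629, 357, 1096 and 999 CPM and replication sums of 553, 247, 765 and 668 CPM. Cardiomyocytes stayed at 21.7, 19.4, 46.9 and 55.4 CPM for the mitotic and 36.2, 58.3, 76.2 and 68.4 CPM for the replication genes. In the uninjured heart the macrophages or monocytes had the highest mitotic sums, from 71 nuclei in WT and 348 in Q150X, and the highest replication sum in WT, while in Q150X the endothelial replication sum was higher.

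**Figure D1:**
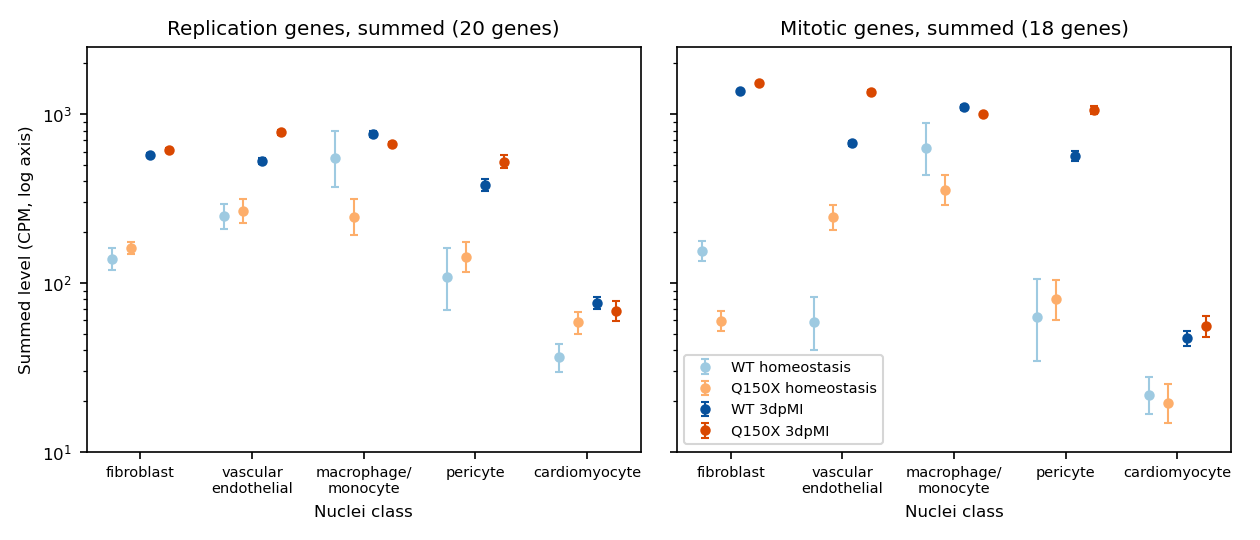
Summed level in CPM (log axis) of the 20 replication genes (left) and the 18 mitotic genes (right) in 5 classes of nuclei, 1 point for each library, with 95% Poisson intervals for counting error. Mitotic sums after infarction lie between 564 and 1526 CPM outside cardiomyocytes, whose points stay below 56 CPM.

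Each list was led by 1 gene. Pola1, the catalytic subunit of the polymerase that starts each new DNA strand, held 70.6%, 67.9%, 33.0% and 29.5% of the replication UMIs in fibroblasts. Diaph3, a formin that builds actin filaments and takes part in cytokinesis, held 38.3%, 28.0%, 37.4% and 36.0% of their mitotic UMIs. These shares are not corrected for gene length and say nothing of the relative number of transcripts. In cardiomyocytes the leading mitotic member was Cenpf, a kinetochore protein, with 44.8% and 36.2% of mitotic UMIs in the uninjured hearts.

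Most mitotic UMIs of fibroblasts lay in a minority of their nuclei. Nuclei were counted here without thinning, at fibroblast medians of 760, 1030, 2930.5 and 5207.5 UMIs, so the counts depend on depth too. In fibroblasts 6 nuclei of WT and 12 of Q150X held 3 or more mitotic UMIs at homeostasis, 0.400% and 0.403% of the class, and 335 (18.4%) and 509 nuclei (27.9%) did at 3dpMI. Those nuclei held 95.4% of all mitotic UMIs of the class in each library after infarction. They also held 73.8% and 77.5% of the replication UMIs, where they made up 34.3% and 38.5% of all UMIs of the class. In the uninjured fibroblasts the few nuclei of this kind held 4.81% and 5.57% of the replication UMIs, where they made up 1.03% and 0.761% of all UMIs. Their share of the replication UMIs was thus above their share of all UMIs in uninjured as in infarcted hearts. Most replication UMIs of uninjured fibroblasts, chiefly of Pola1, lay in nuclei with fewer than 3 mitotic UMIs. In cardiomyocytes at 3dpMI, 12 and 7 nuclei had 3 or more mitotic UMIs, and they held 17.1% and 13.6% of the mitotic UMIs and 1.36% and 3.52% of the replication UMIs of that class. These were 1.03% and 1.66% of cardiomyocyte nuclei, with 1.62% and 1.18% of all UMIs of the class, at median depths of 6099 and 7306 UMIs. The nuclei were picked by the same mitotic UMIs, and few cardiomyocyte nuclei reached 3. These shares therefore cannot compare the concentration of mitotic UMIs between classes.

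The first comparison was of the infarcted with the uninjured WT heart, and it shares its libraries with the comparisons that follow. In fibroblasts the mitotic sum was 8.82-fold (7.69 to 10.2) and the replication sum 4.13-fold (3.57 to 4.81) higher at 3dpMI. Of the members, 18 of 20 replication genes and 18 of 18 mitotic genes were at least 2-fold higher, where 23.4% of all genes with 20 or more UMIs over both libraries were, and 0 were 2-fold lower, against 5.12% of all genes. The 2 replication genes short of that were Pola1, at 98.0 and 189 CPM (1.93-fold, 1.62 to 2.33), and Ccne1, 1 of the E cyclins, with 0 UMIs before and 30 after injury. Without Pola1 the replication sum was 9.42-fold higher. The mitotic fold was 14.3 without the nucleus with the most mitotic UMIs in each library, 13.4 with nuclei weighted equally and 4.16 with at least 1000 UMIs in a nucleus, so no order of the lists can be given here. Of the 10155 mitotic UMIs at 3dpMI, 9762 lay in cluster 3, led by Kif26b and Postn, which had 0 nuclei in uninjured WT. Clusters 0 and 6 had at least 50 nuclei at both times. Their mitotic folds were 3.35 (2.16 to 5.39) and 0.457 (0.342 to 0.607), their replication folds 1.84 (1.45 to 2.34) and 1.03 (0.735 to 1.44). The uninjured mitotic value of cluster 6 rested in large part on 1 nucleus with 82 mitotic UMIs.

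By role, the fibroblast genes spread widely in the replication list. In the mitotic list only the kinases and cyclins stood apart, from 2 UMIs at homeostasis. The E2F factors and E cyclins together went from 7 to 516 UMIs, a 13.4-fold difference (6.45 to 33.5) in CPM. The MCM helicase, which unwinds DNA at the fork, was 7.26-fold higher (4.62 to 12.1) over its 6 subunits, nucleotide supply 7.83-fold (3.76 to 19.6) and the polymerases and clamp 2.21-fold (1.86 to 2.65). The licensing factors Cdc6 and Cdt1, which load that helicase, had 0 UMIs in WT fibroblasts at homeostasis and 176 at 3dpMI, and Cdc6 alone was at least 6.60-fold higher against a floor of 3 counts. The repair genes Brca1 and Brip1 were 9.82-fold higher together (5.92 to 17.6). Among mitotic roles, the kinases and cyclins Plk1, Aurka, Aurkb, Ccnb1 and Ccna2 went from 2 to 478 UMIs, 43.4-fold (11.9 to 359). Spindle genes, kinetochore genes, chromosome structure genes and cytokinesis genes lay between 8.01-fold and 9.23-fold.

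In WT endothelium the injury difference was larger for mitotic than for replication genes. The mitotic sum was 11.5-fold (8.11 to 16.8) and the replication sum 2.11-fold (1.77 to 2.53) higher. With nuclei weighted equally the mitotic fold was 4.62, and with at least 1000 UMIs in a nucleus 17.6. At least 2-fold higher were 14 of the 16 mitotic and 11 of the 19 replication genes with enough UMIs, against 21.4% of all genes. Mki67, the proliferation antigen that coats mitotic chromosomes, stood at 14.6 and 111 CPM, 7.61-fold (3.83 to 17.7), and Top2a, which untangles sister chromosomes, at 3.66 and 64.8 CPM, 17.7-fold (4.86 to 147). Brip1, a helicase of the Fanconi pathway, was as high without injury, with 53.0 and 43.0 CPM (0.811-fold, 0.546 to 1.24). E2f7, a repressing E2F factor, already had 40.2 CPM in the uninjured WT endothelium and 82.0 after infarction (2.04-fold, 1.33 to 3.3). Mcm6 showed little difference, at 29.2 and 37.7 CPM (1.29-fold, 0.769 to 2.31).

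In WT pericytes the mitotic sum was 8.97-fold (5.32 to 16.5) and the replication sum 3.54-fold (2.36 to 5.57) higher after injury, from 14 and 24 UMIs at homeostasis, and the mitotic fold was 5.16 with at least 1000 UMIs in a nucleus. Of the 14 mitotic UMIs 9 lay in cluster 18, which also carried endothelial markers. That cluster held 32.0% of uninjured and 9.34% of infarcted WT pericytes. The mitotic fold was 5.92 (3.04 to 13.2) in cluster 18 and 14.0 (5.96 to 43.2) in cluster 5, the latter from 5 UMIs. Of the members with enough UMIs in the class, 7 of 12 mitotic and 6 of 10 replication genes were at least 2-fold higher, against 20.3% of all genes, and 0 were 2-fold lower, against 4.05%. In macrophages or monocytes the mitotic sum was 1.74-fold (1.24 to 2.53) and the replication sum 1.38-fold (0.961 to 2.07) higher, from 33 and 29 UMIs in the 71 uninjured nuclei, and 2 mitotic and 0 replication genes were at least 2-fold higher, against 9.57% of all genes. Ccne1, with 1 and 31 UMIs, was the 1 member 2-fold lower, against 12.2% of all genes. With the libraries clustered separately the folds were 2.69 for the mitotic and 2.33 for the replication sum, and without the nucleus with the most mitotic UMIs in each library the mitotic fold was 2.88. The count of higher genes is below the share for all genes in the replication list, where 9 of 20 members had 0 UMIs before injury and no direction could be given. In cardiomyocytes the mitotic sum was 2.16-fold (1.66 to 2.85) and the replication sum 2.10-fold (1.72 to 2.6) higher. Pola1 held 76.8% and 52.6% of the replication UMIs there, and without it the replication fold was 4.30, while the mitotic fold was 3.24 without Cenpf, 3.36 with nuclei weighted equally and 3.37 with doublets kept. Among cardiomyocyte members with enough UMIs, 6 of 8 mitotic and 5 of 6 replication genes were at least 2-fold higher, against 22% of all genes, and 0 were 2-fold lower, against 3.65%. Rrm1, the large subunit of ribonucleotide reductase, which makes the building blocks of DNA, rested on 2 and 42 UMIs there (8.41-fold, 2.19 to 71.7), while Cenpf stood at 9.70 and 8.16 CPM (0.841-fold, 0.536 to 1.35).

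In Q150X hearts the fibroblast difference with injury was wider in the mitotic list. The mitotic sum was 25.6-fold (22.2 to 29.5) and the replication sum 3.81-fold (3.49 to 4.17) higher than in the uninjured Q150X fibroblasts, whose mitotic sum was itself below that of WT. With the libraries clustered separately the mitotic fold was 64.9, and without Pola1 the replication fold was 8.36. Again 18 of 20 replication and 18 of 18 mitotic genes were at least 2-fold higher, with 20.7% of all genes as background, and 0 were 2-fold lower, against 8.27%. Cenpe, a kinetochore motor, went from 3 to 795 UMIs (88.6-fold, 30.2 to 431) and Diaph3 from 56 to 5504 (32.9-fold, 25.3 to 43.6). The 2 replication genes under 2-fold were Pola1 (1.65-fold, 1.48 to 1.86) and Mcm7 (1.71-fold, 1.17 to 2.59). Cluster 3 held 14990 of the 15287 mitotic UMIs of these fibroblasts after injury and had 11 nuclei before it. In clusters 0 and 6 the mitotic folds were 3.39 (2.40 to 4.72) and 1.91 (1.28 to 2.80). The replication folds there were 1.13 (0.844 to 1.48) and 1.10 (0.770 to 1.54). In Q150X endothelium the mitotic sum was 5.55-fold (4.68 to 6.63) and the replication sum 2.91-fold (2.47 to 3.46) higher, with a mitotic fold of 3.36 at 1000 or more UMIs in a nucleus. There 17 of 18 mitotic and 16 of 19 replication genes with enough UMIs were at least 2-fold higher, against 21.3% of all genes, and 0 were 2-fold lower, against 6.25%. In Q150X pericytes the folds were 13.2 (10.1 to 17.7) and 3.67 (2.95 to 4.6), with 13 of 13 and 7 of 9 genes with enough UMIs past 2-fold, against 16.3% of all genes, and 0 lower, against 4.46%. At 1000 or more UMIs in a nucleus these folds were 6.67 and 2.32, and without the nucleus with the most mitotic UMIs in each library the mitotic fold was 20.7. In macrophages or monocytes they were 2.80 (2.3 to 3.44) and 2.70 (2.13 to 3.47), with 9 of 18 and 10 of 20 genes past 2-fold, against 17.3% of all genes, and 0 lower, against 12.9%. In cardiomyocytes the mitotic sum was 2.85-fold (2.11 to 3.90) and the replication sum 1.17-fold (0.958 to 1.44) higher, with 3 of 4 and 1 of 4 genes past 2-fold, against 17.9% of all genes, and 0 lower, against 6.21%. Without Pola1 the replication fold was 2.01 and with nuclei weighted equally 1.78, and the mitotic fold was 5.71 with nuclei weighted equally and 5.05 with doublets kept.

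The next comparison was of Q150X with WT in the uninjured heart, where counts were few. In fibroblasts the mitotic sum was lower in Q150X, with a ratio of 0.385 (0.316 to 0.470), from 209 UMIs in WT and 200 in Q150X, while the replication sum had a ratio of 1.16 (0.980 to 1.38). Of the 7 mitotic genes with 20 or more UMIs, 5 were at least 2-fold lower, against 1.15% of all genes, and 0 of 5 replication genes were. In the other direction 0 of these 12 members were 2-fold higher, where 6.54% of all genes were. Anln, which links actin and septins in the cleavage furrow, had 15 and 9 UMIs (ratio 0.241, 0.0931 to 0.589). Diaph3 had 80 and 56 UMIs (ratio 0.282, 0.196 to 0.401), and Knl1, a kinetochore scaffold, 9 and 22 (ratio 0.983, 0.435 to 2.43). The sum rested on few nuclei, since a single WT fibroblast nucleus held 82 of the 209 mitotic UMIs. Without the nucleus with the most mitotic UMIs in each library the ratio was 0.531, with at least 1000 UMIs in a nucleus 0.172 and with the libraries clustered separately 0.158. After each nucleus had been thinned to 500 UMIs, 1.27% of WT nuclei (interval 0.764 to 1.97) and 1.58% of Q150X nuclei (interval 1.16 to 2.09) had at least 1 mitotic UMI, and with nuclei weighted equally the ratio of levels was 0.757. Fibroblast cluster 6, led by Pi16 and Scara5, had a mitotic ratio of 0.242 (0.183 to 0.317), and cluster 0, led by genes such as Lvrn and Negr1, had 1.51 (0.981 to 2.41). The WT nucleus with 82 mitotic UMIs lay in cluster 6, whose WT sum was 183 UMIs, against 26 in cluster 0. The ratio of cluster 6 thus rested in large part on that nucleus.

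In uninjured endothelium the mitotic sum was higher in Q150X, with a ratio of 4.18 (2.83 to 6.36), from 32 and 135 UMIs. Of the 3 mitotic genes with 20 or more UMIs, Cenpf had 4 and 23 UMIs (ratio 5.70, 1.95 to 22.7), Mki67 had 8 and 25 (ratio 3.10, 1.35 to 7.95) and Diaph3 had 10 and 20 (ratio 1.98, 0.886 to 4.74). At least 2-fold higher were thus 2 of these 3, where 7.63% of all genes were, and 0 of 4 replication genes. In Q150X 15 nuclei (2.08%) held 3 or more mitotic UMIs and in WT 4 nuclei (0.730%), and the thinned shares were 3.05% (1.92 to 4.58) and 1.82% (0.878 to 3.33), whose intervals overlap. With nuclei weighted equally the ratio of levels was 2.18, and with a minimum of 1000 UMIs for each nucleus 9.95. The replication sum had a ratio of 1.08 (0.849 to 1.37).

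In the other uninjured classes the counts were smaller still. Macrophages or monocytes had lower sums in Q150X, with a ratio of 0.447 (0.286 to 0.716) for replication, from 29 and 70 UMIs, and 0.567 (0.380 to 0.868) for mitosis, from 33 and 101 UMIs. In that class Pola1 (14 and 32 UMIs, ratio 0.424, 0.220 to 0.859) and Diaph3 (10 and 17 UMIs, ratio 0.315, 0.136 to 0.770) were the members with enough UMIs, and both were at least 2-fold lower, against 3.98% of all genes. With the libraries clustered separately the replication ratio was 0.813. Pericyte ratios were 1.32 (0.841 to 2.16) and 1.27 (0.699 to 2.48), with 0 of 2 members past 2-fold, against 9.47% of all genes higher and 4.26% lower. In cardiomyocytes the replication sum was higher in Q150X, with a ratio of 1.61 (1.26 to 2.06), and Pola1 stood at 27.8 and 39.6 CPM (ratio 1.42, 1.07 to 1.90). The 6 helicase genes had 9 and 26 UMIs there (ratio 2.99, 1.36 to 7.26). The cardiomyocyte mitotic ratio was 0.897 (0.620 to 1.29), and 0 of 2 members with enough UMIs were past 2-fold, against 5.54% of all genes.

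After infarction the genotype comparison had its widest difference in the vascular classes. In endothelium the mitotic sum was 2.02-fold (1.93 to 2.12) and the replication sum 1.49-fold (1.41 to 1.58) higher in Q150X than in WT. All 18 mitotic genes lay above 1 with their intervals, from Top2a at 64.8 and 112 CPM (1.72, 1.48 to 2.01) to Ccnb1, the cyclin that drives entry into mitosis, at 3.95 and 13.8 CPM (3.5, 1.98 to 6.47). At least 2-fold higher were 9 of 18 mitotic and 3 of 20 replication genes, where 2.85% of all genes were, and 0 were 2-fold lower, against 3.27% of all genes. The median ratio was 2.02 over the mitotic genes, 1.66 over the replication genes and 1.06 over all 12966 genes with enough UMIs.

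The mitotic roles differed little from each other in endothelium. The kinases and cyclins stood at 2.37 (1.94 to 2.91), the spindle genes at 2.19 (1.961 to 2.46), the kinetochore genes at 2.12 (1.91 to 2.37), chromosome structure at 1.93 (1.77 to 2.12) and cytokinesis at 1.90 (1.75 to 2.06). Among kinases, Aurka, which matures the spindle poles, had 24 and 55 UMIs (2.73, 1.66 to 4.6) and Plk1, the master kinase of mitosis, 19 and 41 (2.57, 1.46 to 4.68). Knl1 stood at 36.7 and 94.0 CPM (2.56, 2.11 to 3.11), Aspm, which focuses the spindle poles, at 24.2 and 58.3 CPM (2.41, 1.90 to 3.08), and Prc1, which bundles the central spindle, at 30.2 and 70.8 CPM (2.34, 1.89 to 2.92). Mki67 was at 111 and 229 CPM (2.06, 1.84 to 2.31), and Diaph3 at 170 and 321 CPM (1.89, 1.72 to 2.08). Each of these was higher in the Q150X library, and the order among the mitotic roles is within overlapping intervals for every pair.

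The endothelial replication genes spread more widely. The E2F factors and E cyclins were at 1.78 (1.59 to 2.01) together, with E2f8 at 7.90 and 19.1 CPM (2.41, 1.58 to 3.75) and E2f7 at 82.0 and 140 CPM (1.71, 1.49 to 1.959). Repair genes were at 1.75 (1.51 to 2.05), nucleotide supply at 1.71 (1.39 to 2.11) and licensing at 1.60 (1.16 to 2.22). Rrm2, the small subunit of ribonucleotide reductase that is made in S phase, was at 9.30 and 19.6 CPM (2.11, 1.41 to 3.19). The helicase was lower in the order at 1.35 (1.19 to 1.54), as were the polymerases and clamp at 1.25 (1.13 to 1.38). Within the helicase Mcm4 was at 1.84 (1.23 to 2.78) and Mcm5 at 1.80 (1.28 to 2.56), while Mcm7, with 84 and 56 UMIs, was at 0.793 (0.555 to 1.13). The subunits of 1 complex thus had unlike ratios in these libraries. The counting intervals of Mcm4 and Mcm5 do not meet that of Mcm7.

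In pericytes the pattern was similar in kind, from fewer UMIs. The mitotic sum was 1.88-fold (1.72 to 2.06) and the replication sum 1.37-fold (1.22 to 1.54) higher in Q150X. Past 2-fold were 5 of the 15 mitotic and 1 of the 16 replication genes with enough UMIs, against 2.75% of all genes, and 0 were 2-fold lower, against 3.66%. Ect2, which activates RhoA for cytokinesis, had 21 and 38 UMIs (2.84, 1.62 to 5.09), Kif20b 28 and 39 (2.19, 1.31 to 3.69), Cenpe 44 and 57 (2.03, 1.35 to 3.08), Mki67 120 and 155 (2.03, 1.59 to 2.59) and Diaph3 252 and 325 (2.02, 1.71 to 2.40). Ccne2, an E cyclin, was the replication gene past 2-fold, with 13 and 18 UMIs (2.17, 1.01 to 4.82). The pericyte helicase stood at 1.12 (0.847 to 1.47) and nucleotide supply at 0.986 (0.586 to 1.63), both with intervals across 1.

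Fibroblasts, macrophages or monocytes, and cardiomyocytes differed less between the genotypes at 3dpMI. In fibroblasts the mitotic ratio was 1.12 (1.09 to 1.14) and the replication ratio 1.07 (1.03 to 1.11), with 0 of 38 members past 2-fold either way, against 2.05% of all genes higher and 2.73% lower. Ccnb1 was the member farthest from 1, at 10.5 and 17.9 CPM (1.70, 1.30 to 2.25), followed by Mcm2 (1.5, 1.06 to 2.14) and Ect2 (1.49, 1.27 to 1.74). Mki67 stood at 141 and 151 CPM (1.07, 0.99 to 1.16), and Mcm7 at 20.1 and 16.4 CPM (0.816, 0.649 to 1.03). In macrophages or monocytes the mitotic ratio was 0.911 (0.877 to 0.947) and the replication ratio 0.874 (0.834 to 0.916), with 0 of 38 members past 2-fold, against 1.7% of all genes higher and 3.63% lower. There E2f7 was at 36.4 and 24.0 CPM (0.659, 0.524 to 0.832), Kif11, the motor that pushes spindle poles apart, at 67.3 and 52.1 CPM (0.775, 0.659 to 0.913), and Cdt1 at 14.2 and 19.8 CPM (1.40, 1.01 to 1.95). Mki67 was alike in the macrophage libraries, with 182 and 185 CPM (1.01, 0.924 to 1.11).

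In cardiomyocytes after infarction neither sum had an interval off 1, with 1.18 (0.985 to 1.42) for the mitotic and 0.898 (0.767 to 1.05) for the replication genes. Top2a had 22 and 24 UMIs (2.54, 1.36 to 4.75) and Mcm4 had 9 and 11 (2.84, 1.07 to 7.76), the 2 of 18 members with enough UMIs past 2-fold, against 4.29% of all genes, and 0 were 2-fold lower, against 4.53%. Pola1 stood at 40.04 and 30.7 CPM (0.768, 0.608 to 0.963), lower in Q150X here and higher in Q150X at homeostasis. The 4 cardiomyocyte values of Pola1, 27.8, 39.6, 40.04 and 30.7 CPM, thus had the uninjured WT library lowest.

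**Figure D2:**
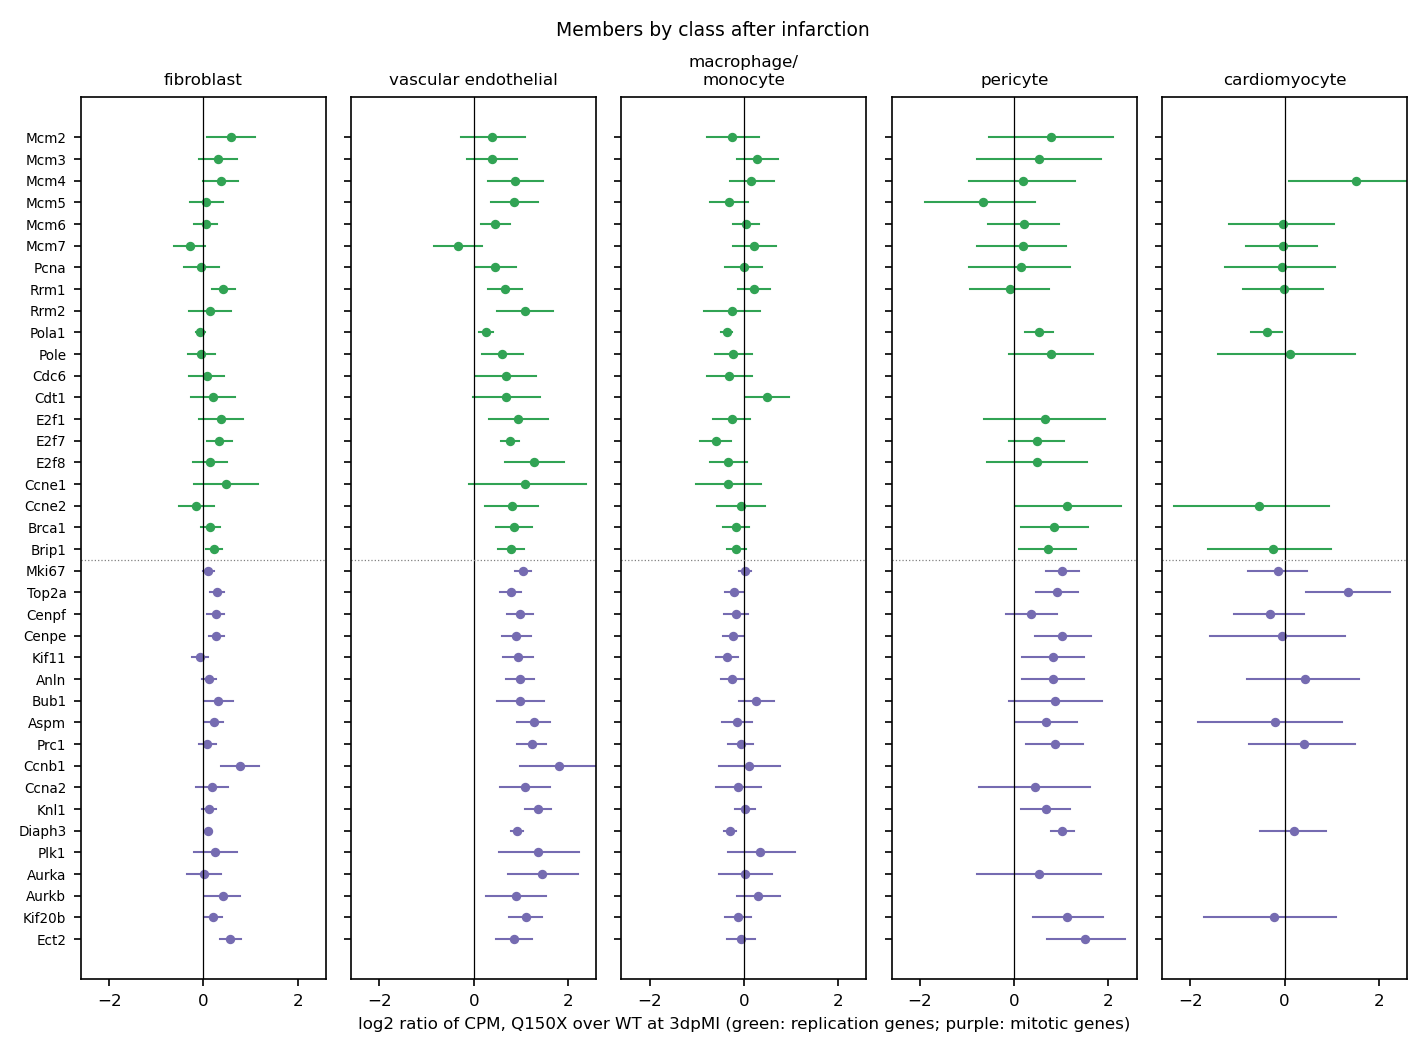
log2 ratio of CPM, Q150X over WT at 3dpMI, of each member with 20 or more UMIs over both libraries in 5 classes (points) with 95% intervals for counting error (lines, cropped at the frame), replication genes in green above the dotted line and mitotic genes in purple below it. In the endothelium all 18 purple points lie right of 0, and in macrophages or monocytes the points gather around 0.

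The thinned shares of nuclei also differed most in endothelium, as a ratio of Q150X to WT. In endothelium 11.9% (10.7 to 13.2) of WT and 23.2% (21.0 to 25.5) of Q150X nuclei at 3dpMI had at least 1 mitotic UMI at 500 UMIs for each nucleus, against 22.3% and 42.7% without thinning. In pericytes the thinned shares were 10.8% (8.57 to 13.3) and 15.7% (12.2 to 19.8), and in fibroblasts 18.7% (16.9 to 20.6) and 26.7% (24.7 to 28.8). Macrophages or monocytes had 21.0% (19.0 to 23.1) and 19.2% (17.7 to 20.7). Cardiomyocytes, set beside the others as the class that should divide least, had 3.93% (2.90 to 5.21) and 3.56% (2.01 to 5.81), at unthinned medians of 6099 and 7306 UMIs. For the replication genes the thinned endothelial shares were 15.6% and 21.3%, the fibroblast shares 15.9% and 18.6%, and the cardiomyocyte shares 5.13% and 3.56%. The fibroblast share thus differed more between the genotypes than the fibroblast CPM did.

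**Figure D3:**
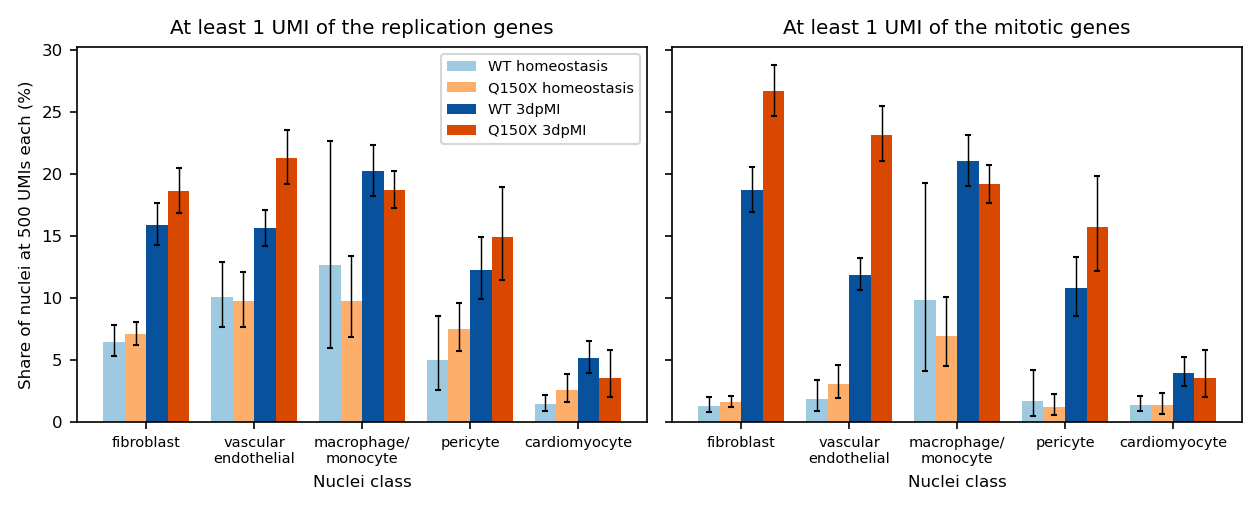
Share of nuclei in percent with at least 1 UMI of the replication (left) or mitotic genes (right), after thinning each nucleus to 500 UMIs, by class and library, with 95% Clopper-Pearson intervals. The mitotic bars of the endothelium after infarction stand at 11.9% in WT and 23.2% in Q150X, and those of macrophages or monocytes at 21.0% and 19.2%.

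Within single clusters the fibroblast and endothelial results parted. Fibroblast cluster 3, led by Kif26b and Postn, a matrix gene of activated fibroblasts, held 45.2% of WT and 76.0% of Q150X fibroblasts at 3dpMI. Its mitotic sum was 2117 CPM in WT and 1770 in Q150X, a ratio of 0.836 (0.815 to 0.858), and its replication ratio was 0.863 (0.828 to 0.900), so inside this cluster the direction was opposite to that of the class. Shares by cluster come from a random thinning apart from that of the class shares. After it, 33.9% of its WT nuclei (interval 30.7 to 37.3) and 33.2% of its Q150X nuclei (interval 30.7 to 35.8) had a mitotic UMI. The other fibroblast clusters lay between 109 and 212 CPM in both libraries, and the share of the class in cluster 3 moved with the class value; its part in the class ratio was not tested. Of these clusters, 13, led by C7, had a mitotic ratio of 1.37 (1.13 to 1.67), cluster 0 had 1.53 (1.07 to 2.15) and cluster 6 had 1.01 (0.673 to 1.498). The difference between the genotypes in the share of fibroblast nuclei was therefore not seen inside cluster 3, which held 313 of the 335 and 497 of the 509 fibroblast nuclei with 3 or more mitotic UMIs.

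In endothelium the mitotic sum was higher in Q150X in each of the 4 clusters. The ratio was 2.79 (2.49 to 3.12) in cluster 2, whose leading genes include Btnl9 and Cd300lg, 1.56 (1.46 to 1.67) in cluster 8, led by Kit and Mest, 1.28 (1.18 to 1.40) in cluster 10, led by Selp, and 2.23 (1.83 to 2.72) in cluster 15, led by Gja5. Cluster 8 had the highest mitotic sums of the class, 1145 CPM in WT and 1788 in Q150X, and held 24.5% of WT and 41.2% of Q150X endothelial nuclei. Thinned shares of nuclei with a mitotic UMI were 8.92% (7.47 to 10.5) and 15.5% (12.2 to 19.2) in cluster 2, and 18.9% (16.0 to 22.2) and 31.4% (27.6 to 35.3) in cluster 8. In cluster 10 they were 13.3% (9.93 to 17.4) and 20.7% (16.3 to 25.8), and in cluster 15 8.29% (4.9 to 12.9) and 9.26% (4.53 to 16.4), with overlapping intervals. The endothelial difference in CPM was thus present inside clusters as well as in their proportions. The shares of nuclei parted with their intervals only in clusters 2 and 8. Replication ratios by cluster were 1.77 (1.57 to 2.01), 1.12 (1.03 to 1.22), 1.38 (1.23 to 1.54) and 0.966 (0.782 to 1.19), the last in cluster 15. Pericyte cluster 5, with 90.7% and 96.7% of the class, had a mitotic ratio of 1.98 (1.80 to 2.18) and thinned shares of 10.9% (8.61 to 13.6) and 19.0% (15.1 to 23.5). In the separate draw for the class, the pericyte shares were 10.8% (8.57 to 13.3) and 15.7% (12.2 to 19.8), with overlapping intervals. The cluster shares therefore do not show a wider pericyte difference than the class shares. Among macrophage clusters, cluster 7, led by Ccr2, was lowest in ratio, at 0.729 (0.636 to 0.837) for mitosis.

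**Figure D4:**
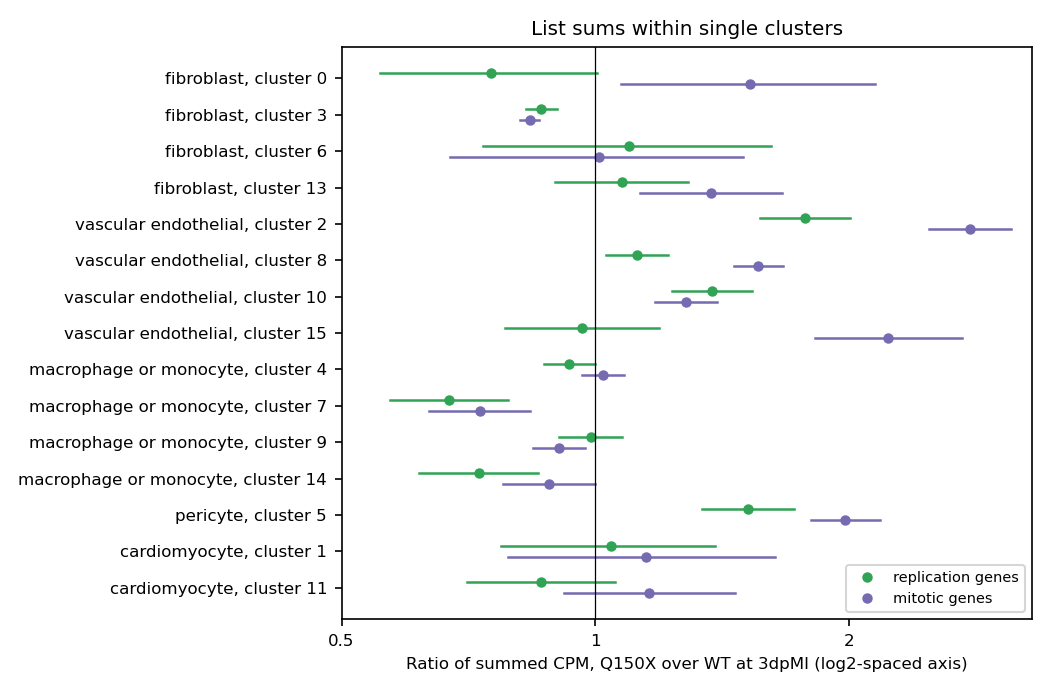
Ratio of summed CPM, Q150X over WT at 3dpMI, on a log2-spaced axis, of the replication (green) and mitotic genes (purple) within single clusters of each class with at least 50 nuclei in both libraries, with 95% intervals for counting error. The mitotic point of fibroblast cluster 3 lies at 0.836, left of 1, and those of the 4 endothelial clusters lie between 1.28 and 2.79.

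Markers of other classes were read beside these results. In the endothelium cardiomyocyte markers stood at 4027, 10100.1, 5833 and 1556 CPM, fibroblast markers at 706, 1923, 2887 and 3232 and macrophage markers at 528, 584, 1041 and 1512. At 3dpMI endothelial nuclei with 3 or more mitotic UMIs held less of the fibroblast markers than the other endothelial nuclei, 1843 against 3052 CPM in WT and 2074 against 3706 in Q150X. They held less of the macrophage markers too, 560 against 1117 CPM in WT and 1055 against 1700 in Q150X, and less of the endothelial markers, 21020 against 23483 CPM in WT and 18955 against 22266 in Q150X. These are levels over all nuclei of each kind, and the part of mixed nuclei in the endothelial ratio was not tested. In pericytes the picture was different, since nuclei with 3 or more mitotic UMIs in WT had 7048 CPM of endothelial markers against 3117 in the others, and 7028 CPM of pericyte markers against 13262. In Q150X those pericyte nuclei had 1970 against 2307 CPM of endothelial and 8284 against 11811 CPM of pericyte markers. The part of such mixed nuclei in the pericyte ratio was not tested. The 7 cardiomyocyte nuclei of Q150X with 3 or more mitotic UMIs had 2590 CPM of endothelial markers, against 174 in the other cardiomyocytes of that library, and the 12 in WT had 647 against 343, and their part in the cardiomyocyte values was not tested either.

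Other cell cycle genes, from lists that hold no member, were read in the same way at 3dpMI. In endothelium 41 of 89 other mitotic genes were at least 2-fold higher in Q150X, with a median ratio of 1.95, and 3 of 40 other replication genes, with a median of 1.54, where 2.85% of all genes were 2-fold higher and the median of all genes was 1.06. Spc25, of the NDC80 kinetochore complex, was at 6.04 and 19.6 CPM (3.25, 2.05 to 5.31), Ube2c, of the anaphase-promoting pathway, at 6.28 and 19.9 CPM (3.17, 2.01 to 5.14), and Clspn, a fork checkpoint protein, at 17.9 and 49.5 CPM (2.77, 2.11 to 3.66). Tubb4b, a tubulin, was near the lower end at 33.9 and 37.9 CPM (1.12, 0.878 to 1.42). In pericytes 22 of 72 other mitotic genes with enough UMIs were at least 2-fold higher, with a median of 1.76, and 5 of 32 other replication genes were higher and 1 lower, against 2.75% and 3.66% of all genes. In fibroblasts and macrophages or monocytes 0 of 89 other mitotic genes were past 2-fold, with medians of 1.19 and 0.945, and of 40 other replication genes 1 was higher in fibroblasts and 0 in macrophages or monocytes, against 2.05% and 1.7% of all genes. In cardiomyocytes 0 of 23 other mitotic genes were past 2-fold, and of 22 other replication genes 0 were higher and 3 lower, against 4.29% and 4.53% of all genes.

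The genes that act before replication were read in endothelium at 3dpMI first. Of all genes there 2.85% were at least 2-fold higher and 3.27% lower, so a count of 0 in a list this short says little. Among 7 G1 cyclins and kinases 0 were past 2-fold, and the median was 0.986. Ccnd3, a D cyclin, was lower in Q150X at 328 and 213 CPM (0.650, 0.595 to 0.710), as was Ccnd2 at 59.7 and 40.6 CPM (0.680, 0.552 to 0.836), while Cdk6, a kinase of the D cyclins, was at 205 and 247 CPM (1.21, 1.10 to 1.33). Of 8 pocket proteins and other E2F factors 0 were past 2-fold, with E2f3, an activating E2F factor, at 151 and 208 CPM (1.38, 1.24 to 1.54). Of 5 measured inhibitors of these kinases, Cdkn2c was past 2-fold, at 6.28 and 13 CPM (2.07, 1.26 to 3.46). With injury in WT endothelium 2 of 5 measured inhibitors were at least 2-fold lower and 1 higher, where 2.97% of all genes were lower and 21.4% higher. Cdkn1a went from 112 to 45.8 CPM (0.411, 0.307 to 0.557) and Cdkn1c from 42.0 to 6.28 CPM (0.149, 0.0824 to 0.272), while Cdkn2d had 1 and 20 UMIs (2.54, 0.407 to 105). In WT fibroblasts 4 of the 7 G1 cyclins and kinases were at least 2-fold higher with injury and 0 lower, with a median of 2.40. Of 8 pocket proteins and other E2F factors 4 were higher and 0 lower, with a median of 1.91. Of all genes 23.4% were higher and 5.12% lower. The D cyclins differed among themselves there, Ccnd2 from 20.04 to 48.1 CPM (2.40, 1.62 to 3.69) and Ccnd3 from 659 to 367 CPM (0.556, 0.516 to 0.601). The kinase Cdk4 went from 2.97 to 24.8 CPM in the same nuclei (8.35, 3.21 to 31).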

How the data were processed

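Nuclei of whole heart were profiled with the 10x Genomics single cell 5′ kit (version 2), per the labels' protocols. The authors deposited raw counts of UMIs for each gene in each nucleus. Cell Ranger 7.1.0 is named in the file headers, and the submitters' processing notes also name Scanpy and GRCm39. No normalisation was applied before deposit.

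The steps here were run with Python 3.11.15, scanpy 1.11.5, numpy 2.4.6, scipy 1.17.1 and pandas 2.3.3. Kept nuclei had at least 500 UMIs, at least 300 genes and at most 10% mitochondrial UMIs, which removed 9, 66, 8 and 5 nuclei in the order of the report. Doublets called with Scrublet in each library were removed too (214, 386, 734 and 756). Where the automatic threshold of Scrublet marked under 0.5% of over 5000 nuclei (Q150X homeostasis and WT 3dpMI), doublets were instead taken from the top of the score, as 0.8% of a library for every 1000 of its nuclei. All nuclei tied at the score of that cut were removed too, so more were removed than this rate gives. The libraries were clustered together (2000 variable genes without the cell cycle lists, 30 components, 15 neighbours, Leiden resolution 1, leidenalg 0.10.2) and the clusters named from markers of 17 classes, with at least 3 markers required. Clusters 14 and 18 also carried endothelial markers.

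Counts were summed by class and library and scaled to CPM. Sums have exact Poisson intervals, shares Clopper-Pearson intervals and ratios exact conditional binomial intervals, all at 95%. They cover counting error only, and no test was possible with 1 library in each group. The intervals of sums and ratios treat UMIs as separate draws and leave out the spread between nuclei. A gene needed 20 UMIs over both libraries to count as measured, and a library at 0 was set to a floor of 3 counts. A member measured only through the library where it is high had to differ, so counts over measured members describe and support nothing by themselves. The procedure was tested on simulated data, drawn as independent Poisson counts, the model that the intervals assume. That test could not show whether the intervals hold for UMIs that lie together in few nuclei. All 38 members could be named. For each class and comparison the up to 4 highest and 4 lowest ratios were candidates, with 8 members followed throughout, and of other lists up to 2 genes at each end with 50 UMIs. Members and lists were chosen with earlier results of these data known, and the grouping by role, the minimum of 3 mitotic UMIs in a nucleus, the values within clusters, and the D cyclins and inhibitors were picked after the data were seen. Genes carry the symbols of the files, and promoter windows come from another build and were used for their letters only.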

Additional observations from a re-analysis of the deposited data

Results flagged for a closer look

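At homeostasis the fibroblast mitotic sum had a Q150X to WT ratio of 0.385 (0.316 to 0.470), and at 3dpMI the ratio was 1.12 (1.09 to 1.14), on opposite sides of 1 with both intervals off 1. The same held for Cenpf, with 0.291 (0.131 to 0.627) and 1.2 (1.06 to 1.36), and for Diaph3, with 0.282 (0.196 to 0.401) and 1.07 (1.03 to 1.12). Both genes are part of that sum. In WT at homeostasis 6 fibroblast nuclei held 88.5% of its 209 UMIs, and a single nucleus held 82. The thinned shares of nuclei at homeostasis were 1.27% in WT (0.764 to 1.97) and 1.58% in Q150X (1.16 to 2.09). These shares went the other way, with overlapping intervals. In cardiomyocytes the ratio of Pola1 was 1.42 (1.07 to 1.90) in the uninjured hearts, and after infarction it was 0.768 (0.608 to 0.963). With 1 library in each group these differences between the times were not tested, and the intervals hold counting error only.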

How the results depend on the processing

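Of 341 values recomputed under other settings, 277 stayed near their main value and 64 moved beyond its interval (or by over 1.5 times for counts). The 31 of 40 list ratios whose interval was off 1 stayed on their side of 1 in every setting run. With cell cycle genes kept in the clustering 0 of 40 ratios moved. Ratios below are Q150X over WT or 3dpMI over homeostasis.
With nuclei weighted equally, the genotype ratios at 3dpMI were 1.19 (fibroblast replication), 1.48 (fibroblast mitotic), 2.52 (endothelial mitotic) and 1.46 (cardiomyocyte mitotic), and at homeostasis 0.757 (fibroblast mitotic) and 2.18 (endothelial mitotic). The injury ratios in WT were then 3.29, 1.68 and 2.83 for replication and 13.4, 4.62 and 3.36 for mitosis in fibroblasts, endothelium and cardiomyocytes, and in Q150X 3.28 and 1.78 (replication, fibroblasts and cardiomyocytes), 2.26 (mitotic, macrophages) and 5.71 (mitotic, cardiomyocytes).
With at least 1000 UMIs in a nucleus, mitotic genotype ratios were 0.172 (fibroblasts, homeostasis), 9.95 (endothelium, homeostasis) and 1.90 (endothelium, 3dpMI), mitotic injury ratios in WT 4.16 (fibroblasts), 17.6 (endothelium) and 5.16 (pericytes), in Q150X 3.36 (endothelium), 2.05 (macrophages) and 6.67 (pericytes), and the replication ratio in Q150X pericytes 2.32. The 4 macrophage ratios that need WT homeostasis could not be had there, with under 50 nuclei.
With libraries clustered separately, macrophages had 0.813 (replication, homeostasis), 2.33 and 2.69 (replication and mitotic, injury in WT) and 3.71 (mitotic, injury in Q150X), fibroblasts 0.158 (mitotic, homeostasis) and 64.9 (mitotic, injury in Q150X), and endothelium at 3dpMI 1.36 (replication) and 1.85 (mitotic).
Without the most abundant member, replication ratios were 2.23 (cardiomyocytes, homeostasis), 1.12, 1.61 and 0.930 (fibroblasts, endothelium and macrophages, genotype at 3dpMI), 9.42 and 8.36 (fibroblasts, injury in WT and Q150X) and 4.30 and 2.01 (cardiomyocytes, injury), and mitotic cardiomyocyte injury ratios 3.24 and 3.94.
With doublets kept, the ratios were 1.64 (replication) and 3.37 and 5.05 (mitotic, WT and Q150X) for injury in cardiomyocytes, 6.94 (mitotic, injury, Q150X endothelium), and 0.953 and 2.21 (mitotic, genotype at 3dpMI, macrophages and pericytes).
Without the nucleus with the most UMIs of the list in each library, chosen after seeing the data, mitotic ratios were 0.531 (fibroblasts, homeostasis), 14.3 and 30.1 (fibroblasts, injury in WT and Q150X), 2.88 (macrophages, injury in WT) and 20.7 (pericytes, injury in Q150X). At Leiden resolution 2 the mitotic injury ratio of Q150X fibroblasts was 30.5.
With a fold of 1.5, members past it at 3dpMI numbered 32 in endothelium against 12, 18 higher and 1 lower in pericytes against 6 and 0, 1 higher in fibroblasts and 1 lower in macrophages against 0. With 50 UMIs required, 0 cardiomyocyte members were past 2-fold, against 2. With 2 mitotic UMIs required, ratios of thinned shares at 3dpMI were 3.25 in endothelium against 1.95 and, on the other side of 1 and from 2 nuclei in each library, 2.78 in cardiomyocytes against 0.905. The cause of these shifts was not tested.
No paired analysis was possible because each group has 1 library. Depth limits the homeostasis values most, with 14 to 209 mitotic UMIs in a WT class.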
